A study of Mus musculus with 18 samples.

Results

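Interferon-stimulated genes, the genes that a cell switches on when interferon reaches it, were followed array by array through TRAMP tumours and normal prostates. The group held 33 named mouse genes, and a probe set was used where that gene was the only symbol the platform table gave it. Of the 33 genes, 31 had such a probe set, 30 passed a filter on low signal, and these 30 stand among 12793 genes that passed it. A probe set passed if its signal exceeded the 40th percentile of the array on 9 or more of the 18 arrays, and each gene was represented by its passing probe set with the highest mean. Ifi44 had no single-gene probe set, Isg15 shared its probe set with Gm9706, and Mx2 fell below the filter.

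The arrays came from 9 TRAMP tumours and 9 normal prostates, and total RNA was measured on Affymetrix arrays. TRAMP mice carry viral T antigens under a probasin promoter, which is active in prostate epithelium, and develop prostate tumours; the normal samples were ventral and dorsolateral lobes. Strain, age and sample pooling are not given in the labels used here. The labels do not tell whether each sample is a different animal, so the p-values here reflect only sample-to-sample spread, which may be partly technical, and precision is limited by how many arrays there are. All levels are log2(signal + 16) of the deposited MAS5 signals, and differences are tumour minus normal on that scale, which understates the change of dim genes.

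Interferons are secreted proteins that warn cells of infection. Type I interferons act through the Ifnar receptor, the kinases Jak1 and Tyk2, and a complex of Stat proteins with Irf9 that binds GAAA-rich promoter elements, while interferon-gamma acts through its own receptor and a Stat dimer that binds TTC-GAA palindromes. The induced genes sense viral RNA, block viral entry, translation and replication, tag proteins with ISG15, and include guanylate-binding and immunity-related GTPases that act against intracellular microbes. In tumours these genes can be switched on in the tumour cells themselves as well as in immune and stromal cells. The RNA here came from whole tissue, so fewer cells of a type and less RNA per cell cannot be told apart.

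Several arrays stood apart. Tumours 6 and 8 were the most alike of all 153 pairs of arrays. The SD of their difference over the 22540 single-gene probe sets that passed the filter was 0.43. It was 0.52 for the next pair, which was normal prostates 1 and 6. The files of tumours 6 and 8 are not identical, and results are given below with both, with both left out and with the 2 averaged. Tumours 1 and 9 had the epithelial keratins Krt8 and Krt18 at low signal: Krt8 was 9.36 in tumour 1 and 7.72 in tumour 9, against at least 13.15 on the other arrays. Spike-in control probe sets were bright on 5 tumour and 6 normal arrays and dim on tumours 6 to 9 and normal prostates 7 to 9. The actin 3' to 5' log2 difference, a sign of RNA quality, was 0.46 to 2.18 in tumours (median 0.95) and 0.31 to 2.48 in normal prostates (median 1.71). Seminal vesicle genes were high in tumours 3, 5 and 7 and in normal prostate 9, with a mean log2 signal over 3 genes of 15.23, 15.55 and 15.35 in these tumours and 14.08 in normal prostate 9, and tumours 6 and 8 were next at 12.45 and 12.44.

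Between the groups, 1 of the 30 interferon-stimulated genes was higher in tumours and none was lower (limma, Benjamini-Hochberg adjusted p under 0.05 over all genes). Over all genes 11.3% were higher and 12.7% lower, 24.0% in either direction, so the share of these genes called was below the background. The called gene was Oas2. At an unadjusted p under 0.05, 9 of the 30 genes were higher, beside 17.5% of all genes. The median difference of the 30 genes was 0.47, and that of all 12793 genes was -0.01. None of the 30 had groups that did not overlap, beside 2.38% of all genes.

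These genes varied more among tumours than among normal prostates. The SD was larger in tumours than in normal prostates for 29 of 30 genes, beside 74.4% of all genes, and the exception was Stat2. The median ratio of the SDs was 2.31 for the 30 genes and 1.38 for all genes. At least 3 tumours lay above the highest normal prostate for 21 of the 30, beside 31.6% of all genes. The genes are not independent of each other, since the same few tumours were high or low for most of them, and these counts are a description without a test.

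The tumours can be taken one by one, each set against the normal median of every gene. Tumours 6 and 8 had median differences over the 30 genes of 1.56 and 1.57, and tumour 2 had 1.03. Tumours 5, 4, 3, 7 and 1 lay between 0.44 and -0.19, and tumour 9 lay at -1.17. Tumour 6 was above every normal prostate for 28 of the 30 genes, beside 23.0% of all genes on that array, tumour 8 for 27 beside 19.5%, and tumour 2 for 21 beside 23.0%. Signals at least 2-fold above the normal median were found for 23 genes in tumour 6, beside 10.9% of all genes, for 23 in tumour 8, beside 10.1%, and for 15 in tumour 2, beside 12.1%. Tumour 9 ran the other way, the lowest of the 18 arrays for 21 of the 30 genes beside 19.7% of all genes, and at least 2-fold below the normal median for 20 beside 23.7%. The mean level over the 30 genes was 7.94 to 10.87 in tumours (median 9.50), a wider range than 8.70 to 9.52 in normal prostates (median 9.18).

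**Figure D1:**
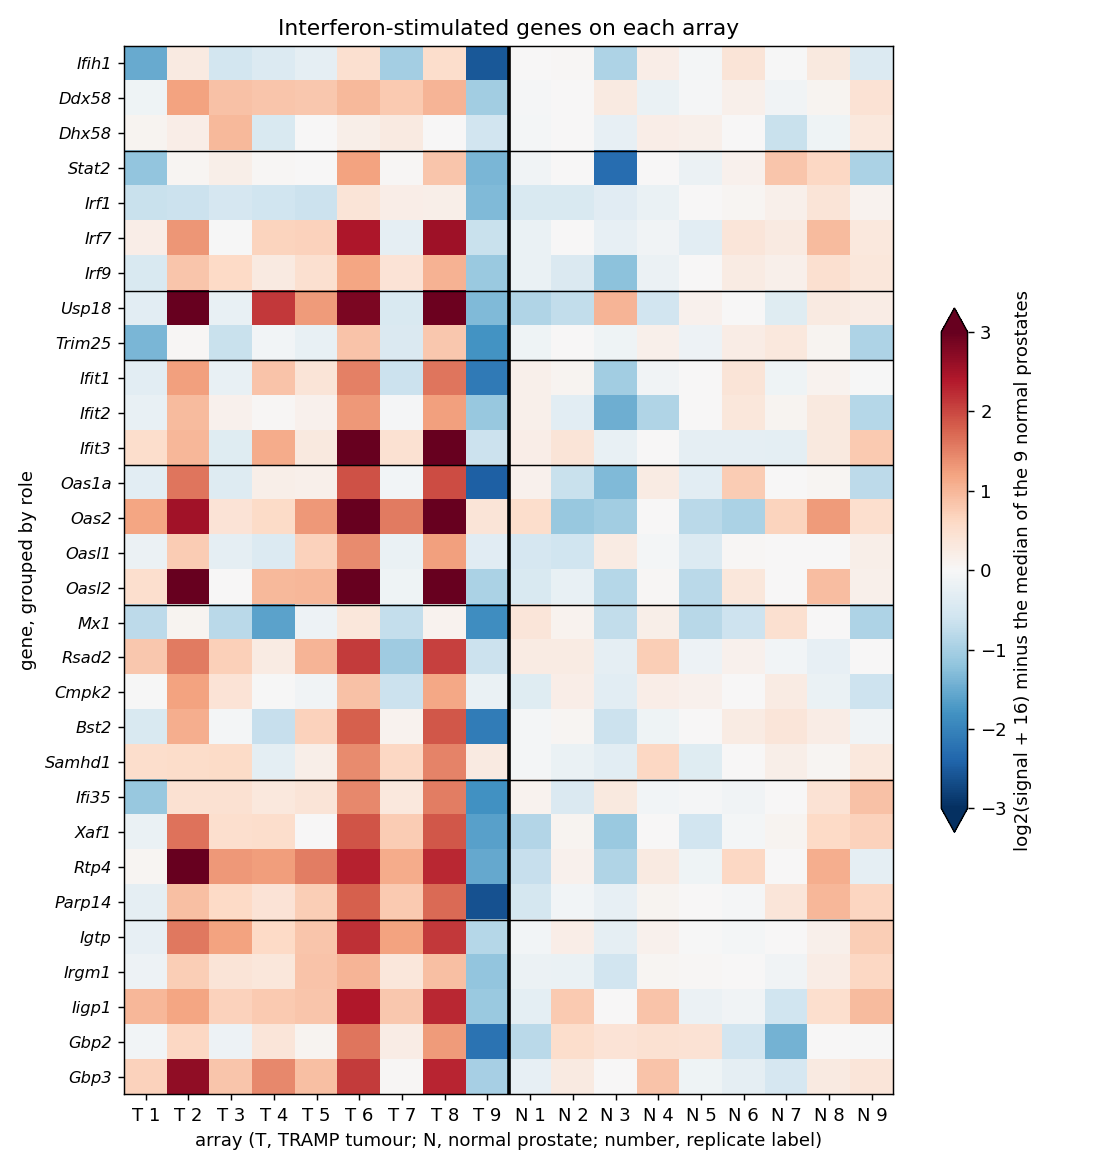
Each row is 1 of the 30 genes, grouped by role, and each column 1 array, TRAMP tumours on the left and normal prostates on the right; the colour gives log2(signal + 16) minus the median of the 9 normal prostates. Tumours 2, 6 and 8 are red for most genes and tumour 9 is blue for most, while the normal prostates are mostly pale. Normal prostate 3 is at least 2-fold below the normal median for 7 genes.

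Leaving out tumour 9 gave 10 called genes: Ddx58, Gbp3, Igtp, Iigp1, Irgm1, Oas2, Oasl2, Rtp4, Usp18 and Xaf1, all higher in tumours, beside 10.4% of all genes higher in that fit. A fit that weights each array by its scatter gave tumour 9 the lowest weight, 0.24, and called 13 members, all higher, beside 14.1% of all genes higher in that fit. With tumours 6 and 8 left out, 1 member was called, beside 11.4% of all genes higher, and the median difference was 0.18. With them averaged as 1 sample 1 was called, beside 10.9%, and the median was 0.33. The arrays with bright spike controls alone gave 4 called members, Ddx58, Gbp3, Oas2 and Rtp4, beside 7.65% of all genes higher, while the arrays with dim controls alone gave 0 called members and 0 called genes in all. With the actin ratio as a covariate 0 members were called, beside 5.98% of all genes higher, and 3 had an unadjusted p under 0.05, while the median difference of the members was 0.46.

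Promoters were examined as a description of the listed genes. The genes were listed as interferon-stimulated, so a raised share of interferon-response patterns comes with how the list was made. The counts of patterns use sequence alone and no array value. Whether the patterns bear on the levels in these tumours was not tested. The promoter table, from RefSeq on build GRCm38.p6 and spanning 250 bases before to 50 bases after each start, has an entry for 25 of the 33 genes. Dhx58, Iigp1, Mx1, Mx2, Oas2, Parp14, Rtp4 and Usp18 have none. The interferon-response pattern of GAAA, any 2 bases and GAAA again, searched on both strands, was present in 13 of the 25 (52.0%), against 3.99% of 27025 genes with an entry. The palindrome TTCNNNGAA was present in 7 of 25, against 9.55% of all genes, and 3 genes held both. The 5 shown have the largest absolute t among genes with an entry and the pattern, and none of the 5 was called between the groups. They are Gbp3 at chr3:142559794-142560093 on the plus strand, Igtp at chr11:58199306-58199605 on the plus strand, Ddx58 at chr4:40239776-40240075 on the minus strand, Ifit3 at chr19:34583279-34583578 on the plus strand and Rsad2 at chr12:26456403-26456702 on the minus strand. Capitals mark the pattern or its reverse complement, TTTC, any 2 bases and TTTC, and each line is read in the direction of the gene.
Gbp3: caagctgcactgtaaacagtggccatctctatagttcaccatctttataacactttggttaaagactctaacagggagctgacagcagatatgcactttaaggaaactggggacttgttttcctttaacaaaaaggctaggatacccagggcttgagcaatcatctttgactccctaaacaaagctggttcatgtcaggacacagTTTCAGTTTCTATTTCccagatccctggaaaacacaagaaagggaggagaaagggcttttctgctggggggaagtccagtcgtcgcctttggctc
Igtp: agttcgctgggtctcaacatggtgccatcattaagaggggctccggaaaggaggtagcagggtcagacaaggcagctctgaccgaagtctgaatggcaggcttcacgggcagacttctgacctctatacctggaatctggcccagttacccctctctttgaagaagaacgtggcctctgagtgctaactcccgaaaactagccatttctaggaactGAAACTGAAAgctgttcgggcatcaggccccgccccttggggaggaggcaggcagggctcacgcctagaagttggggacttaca
Ddx58: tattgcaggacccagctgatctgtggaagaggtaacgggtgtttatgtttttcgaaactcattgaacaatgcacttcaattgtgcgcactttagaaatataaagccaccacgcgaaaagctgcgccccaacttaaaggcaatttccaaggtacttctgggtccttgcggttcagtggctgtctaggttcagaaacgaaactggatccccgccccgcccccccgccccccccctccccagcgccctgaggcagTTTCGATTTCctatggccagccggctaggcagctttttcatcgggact
Ifit3: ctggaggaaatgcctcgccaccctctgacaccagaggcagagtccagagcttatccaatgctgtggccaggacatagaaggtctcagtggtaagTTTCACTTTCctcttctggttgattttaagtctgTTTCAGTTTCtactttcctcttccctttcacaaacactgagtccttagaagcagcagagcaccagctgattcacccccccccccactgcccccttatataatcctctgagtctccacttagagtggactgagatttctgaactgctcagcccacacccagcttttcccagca
Rsad2: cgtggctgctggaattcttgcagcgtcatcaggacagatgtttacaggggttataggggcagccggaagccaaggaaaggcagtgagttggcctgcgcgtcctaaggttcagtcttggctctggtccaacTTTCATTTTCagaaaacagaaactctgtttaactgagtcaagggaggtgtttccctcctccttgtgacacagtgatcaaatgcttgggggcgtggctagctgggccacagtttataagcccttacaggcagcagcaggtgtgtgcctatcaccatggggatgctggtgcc
The pattern lay closest to the start in Ddx58, where it began 2 bases after it, and 34 bases before the start in Igtp and 45 in Gbp3. In Rsad2 it began 120 bases and in Ifit3 156 bases before the start. Gbp3 and Ifit3 held 2 matches each, which overlap in Gbp3. A match is a description of the letters and does not show binding.

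Among the RNA sensors, which recognise viral double-stranded RNA, none of 3 was called, beside 24.0% of all genes called in either direction. Ifih1 encodes the sensor MDA5 of long RNA. Its lowest, median and highest signals were 8.05, 10.20 and 11.14 in tumours and 9.67, 10.60 and 10.995 in normal prostates, a difference of -0.50 ± 0.34 (SE, n = 9 each; adjusted p = 0.302). Tumours 1, 7 and 9 lay below every normal prostate and tumours 6 and 8 above, so the groups overlapped at both ends. Ddx58 encodes RIG-I, the sensor of RNA with a free triphosphate end. It measured 8.54, 10.43 and 10.79 in tumours, against 9.40, 9.59 and 10.02 in normal prostates. In 7 tumours it lay above every normal prostate, tumour 1 lay within their range and tumour 9 below it, and the difference of 0.53 ± 0.24 did not pass (adjusted p = 0.119). Without tumour 9 it passed. Dhx58, which encodes LGP2, a helper of both sensors, differed by 0.12 ± 0.18, and tumour 3 had its highest signal, 8.64. The other Dhx58 probe set that passed the filter gave 0.81 and a different order of arrays. On it tumours 8, 6 and 2 were highest, at 9.57, 9.15 and 8.75, and tumour 3 had 6.70.

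None of the 4 transcription factors was called, beside 24.0% of all genes. Irf7, which drives the second wave of type I interferon genes, measured 8.20, 9.53 and 11.41 in tumours and 8.55, 8.86 and 9.81 in normal prostates. Tumours 8, 6 and 2, at 11.41, 11.28 and 10.19, were above all normal prostates, and the difference was 0.65 ± 0.38 (adjusted p = 0.222). Irf9, the DNA-binding subunit of the type I complex, measured 9.11, 10.70 and 11.39 in tumours, against 8.99, 10.22 and 10.69 in normal prostates. It differed by 0.45 ± 0.28 (adjusted p = 0.259), with 5 tumours above every normal prostate. Stat2, its partner, differed by 0.19 ± 0.39 and was the gene with the larger SD in normal prostates, where normal prostate 3 stood at 6.54; without that array the difference was -0.06, and a second probe set gave -0.05. Irf1, which answers mainly to interferon-gamma, measured 9.33, 10.05 and 11.04 in tumours and 10.18, 10.64 and 11.04 in normal prostates. In 6 tumours it lay below every normal prostate, yet the difference of -0.32 ± 0.21 did not pass (adjusted p = 0.278).

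ISG15 is a ubiquitin-like protein that interferon-treated cells attach to other proteins. Usp18, which removes ISG15 and also damps signalling at the Ifnar receptor, measured 7.37, 9.98 and 11.77 in tumours and 7.79, 8.70 and 9.71 in normal prostates. Tumours 2, 8, 6, 4 and 5 were above every normal prostate and tumour 9 was below every one. The SD was 1.71 in tumours and 0.60 in normal prostates, and the difference of 1.21 ± 0.56 did not pass (adjusted p = 0.124). Trim25, a ligase that acts on RIG-I, differed by -0.26 ± 0.30. It was above the normal range in tumours 6 and 8 and below it in tumours 1 and 9. Its 3 probe sets gave differences of -0.26, -0.20 and 0.00.

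The Ifit genes encode proteins that bind foreign RNA and block its translation, and they lie in 1 cluster on chromosome 19, with Ifit2 and Ifit3 side by side. Ifit3 measured 7.68, 8.85 and 11.40 in tumours and 8.04, 8.33 and 9.11 in normal prostates. Tumours 8 and 6, at 11.40 and 11.36, stood about 2 log2 units above the next tumour, tumour 4 at 9.44, while tumours 3 and 9 lay below every normal prostate. The difference was 0.87 ± 0.43 (adjusted p = 0.147). Ifit1 measured 6.90, 9.40 and 10.62 in tumours, against 7.98, 9.01 and 9.40 in normal prostates, and 5 tumours were above all normal prostates. Its difference was 0.32 ± 0.40, and -0.05 with tumours 6 and 8 left out. Ifit2 differed by 0.56 ± 0.32 (adjusted p = 0.213), with tumours 6, 8 and 2 above all normal prostates. Near-identical relatives exist for some of these genes, such as Ifit3 and the Oas1 cluster, and the probes may not tell them apart.

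The 2-5A synthetases make a small RNA messenger that activates the nuclease RNase L, which degrades viral and cellular RNA. Oas2 measured 7.31, 8.23 and 10.92 in tumours and 5.80, 6.93 and 8.22 in normal prostates. Tumours 6 and 8 stood at 10.92 and 10.91 and tumour 2 at 9.44, and 5 tumours in all were above every normal prostate. The difference was 1.87 ± 0.52 (SE, n = 9 each), with an adjusted p of 0.015. Oas2 was under the 40th percentile of its array on 5 of 9 normal arrays; with each signal raised to at least that percentile the difference was 1.34. Oas2 was called in each fit that left out 1 array and without tumours 6 and 8. It was not called with the actin covariate (1.61, adjusted p = 0.080), without normal prostate 9 and tumours 3, 5, 6, 7 and 8 (1.34, adjusted p = 0.0584) or on the arrays with dim spike controls (1.66, adjusted p = 0.492), and a 60th percentile filter removed it.

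Oasl2, a relative that can bind viral RNA, measured 7.23, 9.16 and 11.60 in tumours, against 7.33, 8.19 and 9.12 in normal prostates. Tumours 6, 8 and 2 were at 11.60, 11.50 and 11.27, at least 2 log2 units above the next tumour, and tumour 9 was below every normal prostate. The difference was 1.34 ± 0.53 (adjusted p = 0.075). Oasl1, its neighbour on the chromosome, differed by 0.42 ± 0.25, with 4 tumours above all normal prostates. Oas1a measured 7.76, 10.37 and 12.19 in tumours and 8.91, 10.22 and 10.997 in normal prostates, a difference of 0.50 ± 0.48 (adjusted p = 0.477). Its highest signals were in tumours 8, 6 and 2, at 12.19, 12.13 and 11.83.

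**Figure D2:**
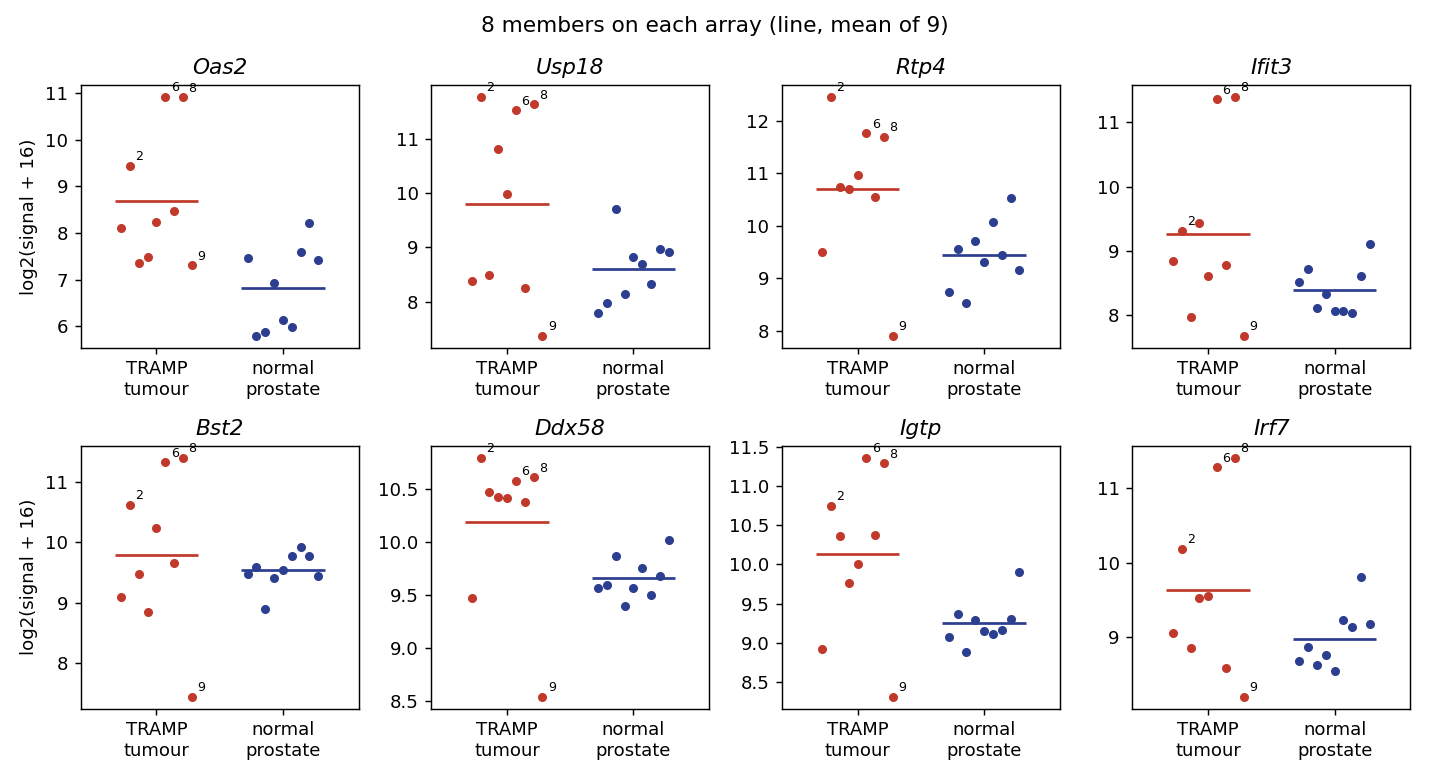
Each panel gives log2(signal + 16) of 1 gene on every array, TRAMP tumours in red on the left and normal prostates in blue on the right; the line is the mean of 9 arrays and tumours 2, 6, 8 and 9 are numbered. Tumours 6 and 8 are at or near the top in each of the 8 panels and tumour 9 is the lowest tumour in each. The 8 genes were chosen for display without a fixed rule. Over all 30 genes tumour 9 was the lowest tumour for 26, and tumours 4 and 7 were lowest for 2 each. Dhx58 was highest in tumour 3.

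Of the antiviral effectors, 0 of 5 that passed the filter were called, beside 24.0% of all genes. Rsad2 encodes viperin, an enzyme that makes a chain-terminating nucleotide, and lies next to Cmpk2 on chromosome 12, which supplies nucleotides for it. Rsad2 measured 8.67, 10.55 and 11.83 in tumours, against 9.47, 9.74 and 10.48 in normal prostates. In 5 tumours it was above every normal prostate, in tumours 7 and 9 below every one, and the difference was 0.68 ± 0.36 (adjusted p = 0.175). Its other probe sets gave 0.65 and 0.00. Cmpk2 differed by 0.38 ± 0.23, with tumours 2, 8, 6 and 3 above every normal prostate.

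Bst2, or tetherin, holds budding viruses at the cell surface. It measured 7.44, 9.65 and 11.40 in tumours and 8.89, 9.54 and 9.92 in normal prostates, and its SD was 1.27 in tumours and 0.30 in normal prostates. Tumours 8, 6, 2 and 5 were above every normal prostate and tumours 4 and 9 below, and the means differed by 0.25 ± 0.41 (adjusted p = 0.686). Samhd1, which destroys the building blocks of DNA, measured 9.04, 9.89 and 10.82 in tumours and 8.97, 9.34 and 9.97 in normal prostates. It differed by 0.56 ± 0.21 (adjusted p = 0.062). Its 5 probe sets disagreed: in a fit over all 22540 probe sets that passed, 1 was higher by 1.27 (adjusted p = 0.017) and the other 4 lay between -0.13 and 0.56. In that fit 2 of 47 member probe sets were called, of Oas2 and Samhd1, both higher, beside 10.7% of all probe sets. Mx1, a GTPase against influenza virus, differed by -0.38 ± 0.30. It was one of 4 genes with a negative difference, with Ifih1, Irf1 and Trim25, and no tumour lay above its normal range.

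Among the other induced genes, 0 of 4 were called, beside 24.0% of all genes. Rtp4, a chaperone of receptors that restricts some viruses, measured 7.90, 10.74 and 12.45 in tumours and 8.53, 9.43 and 10.52 in normal prostates. It was above every normal prostate in 7 tumours, with tumour 2 highest and tumour 9 below every normal prostate. The difference of 1.25 ± 0.46 came close to the threshold (adjusted p = 0.056). Xaf1, a promoter of cell death, measured 7.65, 9.80 and 11.18 in tumours and 8.18, 9.28 and 9.97 in normal prostates, with 4 tumours above all normal prostates, and differed by 0.72 ± 0.40. Its other probe set gave -0.14. Parp14, an ADP-ribosyltransferase, differed by 0.31 ± 0.43, with tumour 9 at 6.22 and the other tumours at 8.58 or more. Ifi35 differed by 0.10 ± 0.36, with tumours 6 and 8 above every normal prostate.

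The GTPases induced by interferon-gamma attack the vacuoles of intracellular microbes, and 0 of 5 were called, beside 24.0% of all genes. Igtp measured 8.31, 10.36 and 11.36 in tumours and 8.88, 9.16 and 9.90 in normal prostates. Tumours 6, 8 and 2 led and 6 tumours were above every normal prostate, and the difference was 0.88 ± 0.33 (adjusted p = 0.062). Gbp3 measured 6.69, 8.59 and 10.36 in tumours, against 7.20, 7.69 and 8.54 in normal prostates. In 5 tumours it was above every normal prostate, and its difference was 1.04 ± 0.39 (adjusted p = 0.058). Iigp1 differed by 0.77 ± 0.37 (adjusted p = 0.132) and had 2 probe sets at 0.77 and 0.87. Irgm1, a regulator of the other GTPases, differed by 0.36 ± 0.25, and Gbp2, close to Gbp3 on chromosome 3, by 0.30 ± 0.40. At least 3 tumours were above all normal prostates for each of these 5 genes, beside 31.6% of all genes.

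**Figure D3:**
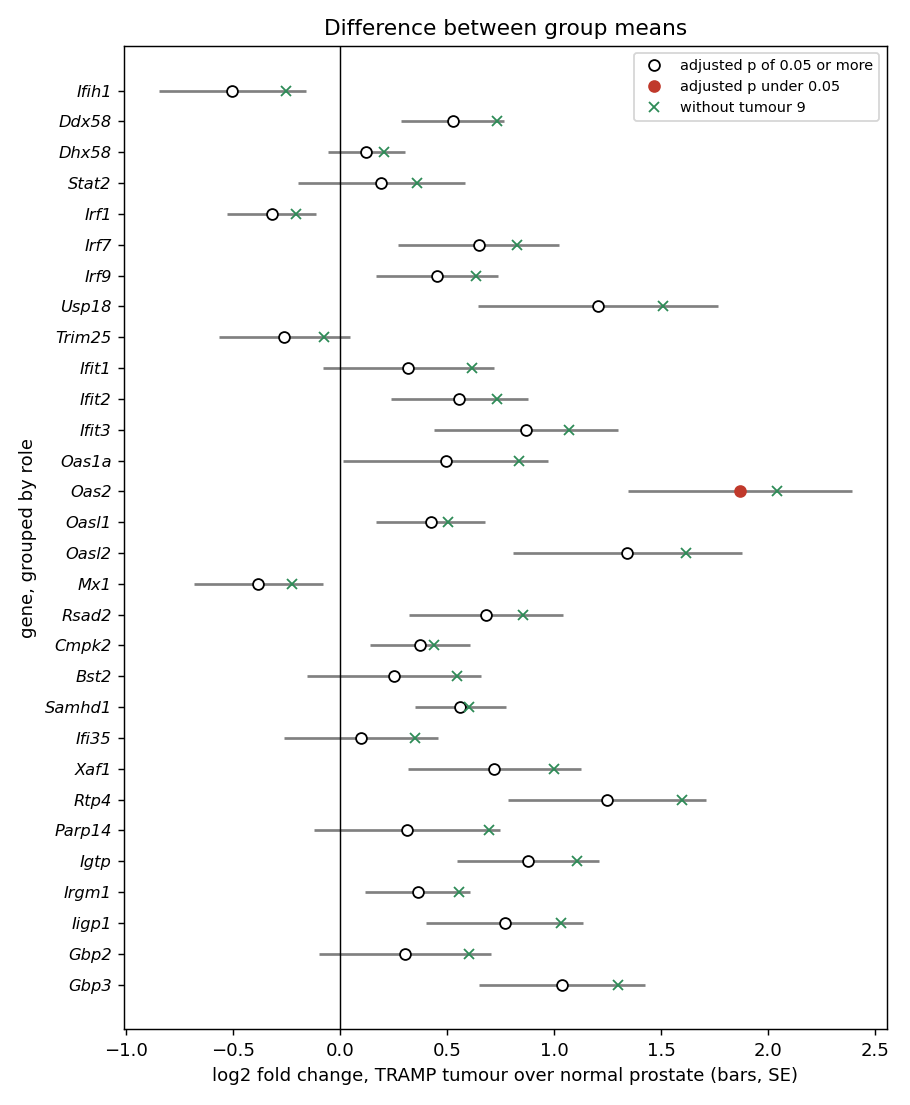
Each circle is the difference between group means on the log2(signal + 16) scale, TRAMP tumour over normal prostate, with its SE as a bar, and each cross the difference without tumour 9. Oas2 is the filled circle with an adjusted p of 0.015, and for every gene the cross lies to the right of the circle.

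The machinery upstream of these genes was then examined through 45 genes, of which 25 passed the filter. Of the 25, 1 was higher and 5 were lower, beside 11.3% of all genes higher and 12.7% lower. The share called in either direction was near the 24.0% of all genes. None of the 8 ligand genes with a single-gene probe set passed the filter, and Ifng measured 4.32, 4.74 and 5.63 in tumours and 4.48, 4.63 and 6.40 in normal prostates. Tumour and normal medians were 6.84 and 6.85 for Ifnb1, 7.12 and 6.65 for Ifna1, 5.61 and 5.69 for Ifna2. They were 5.17 and 5.30 for Ifna4, 6.03 and 5.03 for Ifna5, 6.37 and 5.91 for Ifna11, 5.43 and 6.61 for Ifnab. The highest signal among the ligands was that of Ifna2 in a tumour, 8.42, against at most 7.23 for Ifna2 in normal prostates. Irf2, a repressor that competes for the same DNA elements, measured 8.09, 9.22 and 9.83 in tumours, against 9.15, 11.29 and 12.19 in normal prostates. It fell by 1.96 ± 0.34 (adjusted p = 0.000727), and normal prostate 9, at 9.15, lay among the tumours. Mavs, the adaptor through which RIG-I and MDA5 signal, was lower by a difference of -1.01 ± 0.21 (adjusted p = 0.00257), with 8 tumours below every normal prostate.

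The receptor subunits Ifnar2 and Il10rb were also lower, with differences of -0.87 ± 0.28 (adjusted p = 0.030) and -0.96 ± 0.33 (adjusted p = 0.041). Il10rb lay below every normal prostate in 7 tumours. Irf4, a factor of lymphocytes, differed by -0.60 ± 0.19 (adjusted p = 0.027) and was dim on 5 tumour arrays; with each signal raised to at least the 40th percentile of its array the difference was -0.25. Socs3, an inhibitor of cytokine signalling, was higher, at 8.08, 9.35 and 10.95 in tumours and 7.34, 8.20 and 9.03 in normal prostates, a difference of 1.11 ± 0.36 (adjusted p = 0.031). Tumour 2 was its highest array and tumours 6 and 8, at 8.43 and 8.71, were within the normal range. Irf2, Mavs, Ifnar2 and Socs3 were read from probe sets ending in s, x or a. Without such probe sets 3 upstream genes were called instead of 6, and 4 were called with the passing probe sets of each gene averaged.

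Of 46 other interferon-induced genes, 40 passed the filter, 3 were higher and 1 was lower, beside 11.3% of all genes higher and 12.7% lower. Lgals9, a galectin that regulates T cells, measured 7.03, 10.80 and 13.14 in tumours, against 7.61, 8.24 and 9.18 in normal prostates, and rose by 2.35 ± 0.63 (adjusted p = 0.012). Its highest signals were in tumours 3, 5 and 7. Ifi47, an immunity-related GTPase, rose by 1.45 ± 0.41 (adjusted p = 0.015), with tumours 2, 6 and 8 highest at 10.34, 10.12 and 9.96. Parp9 rose by 1.10 ± 0.38 (adjusted p = 0.042), and Tor3a differed by -1.04 ± 0.30 (adjusted p = 0.017). The SD was larger in tumours for 38 of the 40, and the mean level of the 40 was highest in tumour 6, at 10.63, and lowest in tumour 9, at 8.07.

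Markers of the other cell types that whole tissue can hold were set beside these levels. Of 15 macrophage and myeloid markers, 5 were higher in tumours and none was lower, beside 11.3% of all genes higher and 12.7% lower. The 5 were Aif1, by 1.11 ± 0.24 (adjusted p = 0.0031), C1qa, by 1.88 ± 0.55 (adjusted p = 0.019), Laptm5, Fcer1g and Cx3cr1. C1qa encodes a complement subunit made by macrophages. The genes of its partner subunits, C1qb and C1qc, were not called (adjusted p = 0.087 and 0.054). The mean level of the 15 markers was 8.55 to 11.58 in tumours and 7.98 to 9.81 in normal prostates. It was highest in tumour 5, at 11.58, and tumour 1, at 10.10, while tumours 2, 6 and 8 had 10.06, 9.93 and 9.96, and tumour 9 had the lowest tumour level. Of 6 T and NK cell markers none was called, with mean levels of 6.92 to 8.36 in tumours and 7.23 to 8.16 in normal prostates, and Cd3e, Cd3d, Cd3g, Cd4 and Cd8b1 were below the filter. The 3 B and plasma cell markers had 7.29 to 9.72 in tumours and 7.35 to 9.93 in normal prostates, with tumours 8 and 6 the highest tumours. The 3 plasmacytoid dendritic cell markers had 6.83 to 7.80 in tumours and 6.99 to 8.91 in normal prostates, and Siglech, a defining one, was dim on 6 tumour arrays. Of 7 endothelial markers none was called. The luminal epithelial marker Pbsn, the gene of probasin, was below the filter and is not in the mean of that list. Its lowest, median and highest signals were 4.17, 4.49 and 6.44 in tumours and 4.18, 10.79 and 14.43 in normal prostates. Of the luminal epithelial markers 3 passed the filter: Hoxb13, which was lower in tumours, and Krt8 and Krt18, which were not called. Their mean was 8.97 to 12.67 in tumours and 10.28 to 14.15 in normal prostates. It was lowest in tumour 9 and in normal prostate 9, but through different genes. Tumour 9 had low Krt8 and Krt18, 7.72 and 7.05, and the highest Hoxb13 among tumours, 12.15. Normal prostate 9 had Hoxb13 at 4.50, with Krt8 and Krt18 at 13.15 and 13.21. The neuroendocrine markers that passed were 2, Ncam1, which was higher in tumours, and Syp, which was not called. Their mean was 7.78 to 11.18 in tumours and 7.29 to 9.22 in normal prostates. It was highest in tumours 9 and 1, at 11.18 and 10.88, which had the lowest mean levels of the interferon-stimulated genes among tumours. Chga, Chgb and Scg2 were below the filter and are not in this mean. Their highest tumour signals were 12.24, 12.75 and 8.36, against 7.48, 5.75 and 7.29 in normal prostates. Cell division genes, 5 of 5 that passed the filter higher in tumours, had their highest mean level in tumour 9, at 12.64. Bub1 was under the filter percentile on all 9 normal arrays, so it passed the filter through its tumour signals alone. Its call is therefore not independent of the filter. With each signal raised to at least that percentile its difference was 2.27 instead of 4.13. Aurkb was dim on 6 normal arrays and Mki67 on 2, while Ccna2 and Top2a were dim on 0. The part of cell makeup in the interferon-stimulated levels was not tested.

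**Figure D4:**
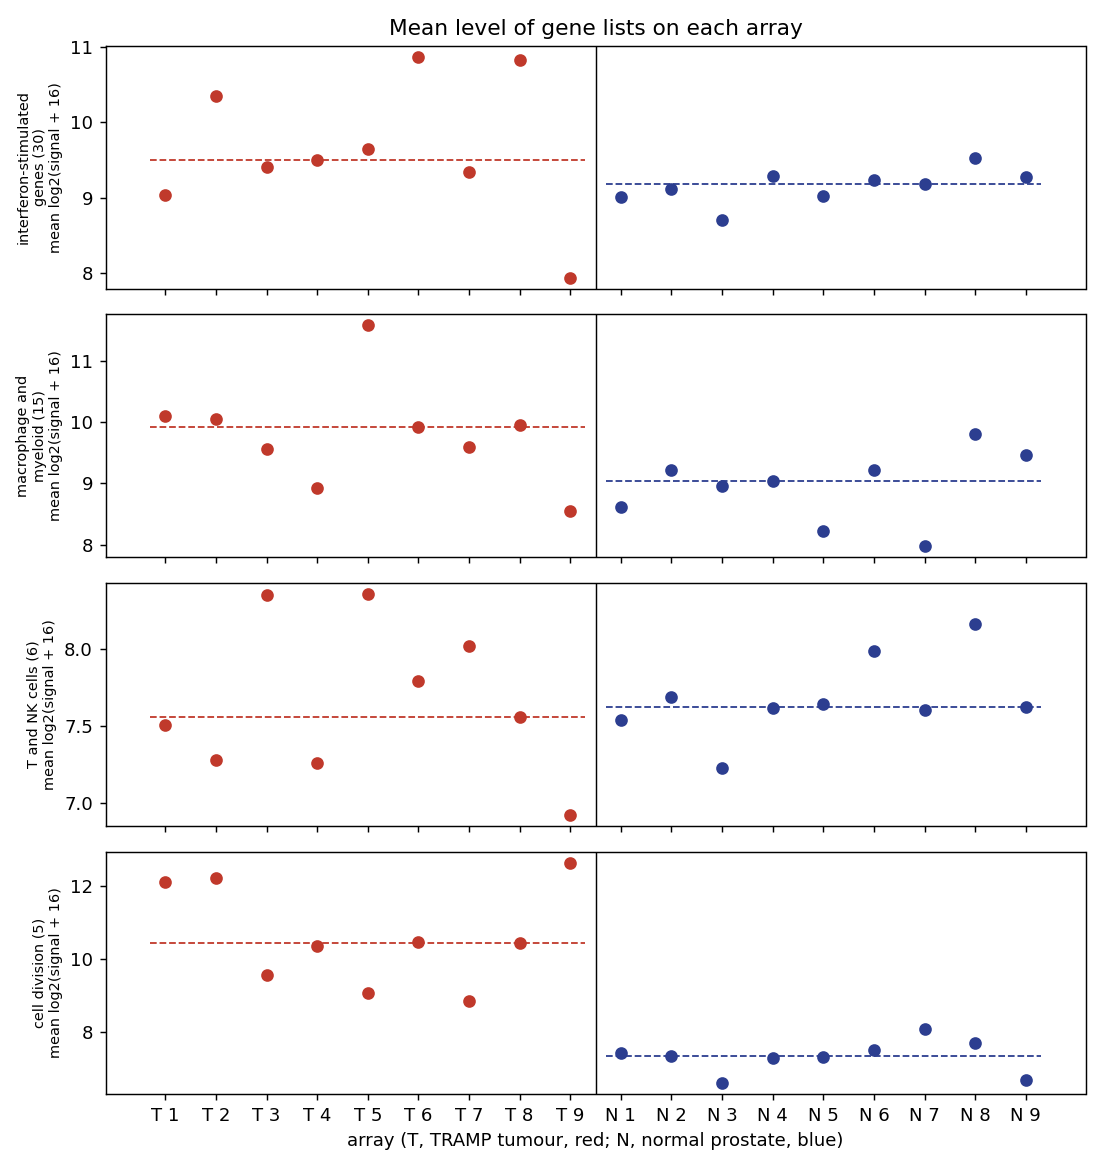
Each point is the mean log2(signal + 16) of a gene list on 1 array, TRAMP tumours in red on the left and normal prostates in blue on the right, with dashed lines at the group medians. The 30 interferon-stimulated genes peak in tumours 6 and 8, at 10.87 and 10.82, the macrophage list peaks in tumour 5, and tumour 9 is lowest for the interferon-stimulated genes and highest for cell division.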

How the data were processed

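Intensities were deposited on a linear scale; the authors used MAS5 for them, as the submitters' processing notes say; no version is given in the sources used here. The deposited arrays share 1 trimmed mean, so overall brightness is removed but dim probe sets stay noisy. Of 45101 probe sets, 34945 carry 1 gene symbol, 932 more than 1, and 9160 no symbol, beside 64 controls; 22540 single-gene probe sets passed the filter. Log2(signal + 16) was tested with limma (version 3.58.1, R 4.3.3; lmFit, then eBayes, with group as the only term, two-sided, Benjamini-Hochberg at 0.05 over 12793 genes). Plots used Python 3.11.15 and matplotlib 3.10.9. The fit was tested on simulated data. Members, lists and tests were chosen with earlier results of these data known. The text names all 33 members, up to 6 called genes of each other list by absolute t, and promoters of up to 5 members with the pattern, by absolute t. Genome coordinates are those of the promoter table; the build behind the array annotation is not named, and neighbours come from a RefSeq gene table of GRCm38.p6. Replicate numbers are shared by the groups, but same-numbered arrays deviated together (correlation over 0.1) in 1 of 9 pairs, with correlations of -0.08 to 0.34, so they were not treated as pairs. Alternatives covered the pseudocount, filter, normalization, weights, probe sets, spike brightness, actin ratio and arrays left out.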

Additional observations from a re-analysis of the deposited data

Results flagged for a closer look

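In 60 groups of 9 arrays, 1 for each gene in each group, 7 had an array whose gap to the nearest of the others was a large share of the group's range (Dixon's test at its 95% critical value). Chance flags about 1 in 20 groups. Tumour 9 was the lowest tumour for 3 of these: Parp14 at 6.22 with the next tumour at 8.58, Iigp1 at 8.07 with the next at 9.89, and Gbp2 at 6.59 with the next at 8.64. Among normal prostates, normal prostate 3 was lowest for Ifit1, at 7.98 with the next at 8.88, and for Bst2, at 8.89 with the next at 9.41. Normal prostate 9 was lowest for Trim25, at 10.38 with the next at 11.17, and highest for Igtp, at 9.90 with the next at 9.36.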

How the results depend on the processing

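Called members, 1 of 30 in the main fit, are given with the share of all genes higher in the same fit. They were higher unless stated. There were 3 with a pseudocount of 64 (11.4%) and 0 of 25 with a 60th percentile filter, which removed Oas2 (11.8%). Array weights gave 13 (14.1%) and the replicate block 3, Oas2, Oasl2 and Rtp4 (9.5%). Arrays with bright spike controls gave 4 (7.65%), those with dim ones 0 (0%), and the actin covariate 0 (5.98%). Without normal prostate 9 and tumours 3, 5 and 7 there were 4 (14.1%). When tumours 6 and 8 were also removed there were 2, Irf1 and Trim25, both lower. In that fit 38% of all genes were called in either direction and 17.2% were higher. Leaving out 1 array gave 1 to 10 called members, all higher, beside 8.97% to 12.4% of all genes higher. The highest count was without tumour 9. Without tumour 1 or 7 the count was 3, and without tumour 4 or 5 or normal prostate 4, 8 or 9 it was 2. All called genes, 3067 (24.0%), numbered 0 on the arrays with dim spike controls and 1633 (12.8%) with the actin covariate. They numbered 4860 (38%) without the 6 arrays (normal prostate 9 and tumours 3, 5, 6, 7 and 8). They made up 22.7% without probe sets ending in x, s or a and 16.5% on bright arrays. The share was 29.8% with array weights, 20.7% with the replicate block and 19.2% to 26.7% with 1 array left out. The 6 called upstream genes became 3 without probe sets ending in x, s or a, 3 on bright arrays, 0 on dim ones, 3 with the actin covariate and 12 without the 6 arrays, and 2 to 7 when 1 array was left out, with 2 without normal prostate 7 and 3 without normal prostate 2. The 4 other interferon-induced genes became 13 with array weights, 2 with the replicate block, 0 on dim arrays, 1 with the actin covariate and 7 without the 6 arrays, and 3 to 8 with 1 array left out, the 8 without tumour 9. Signs turned only for genes not called. On dim arrays Trim25 was 0.0352, Ifi35 -0.0692 and Parp14 -0.257. Ifi35 was -0.0706 with the actin covariate and Dhx58 was -0.00272 without normal prostate 9 and tumours 3, 5 and 7. Without the 6 arrays Dhx58 was -0.0966, Stat2 -0.489, Ifit1 -0.0148, Oas1a -0.107, Bst2 -0.546, Ifi35 -0.566, Parp14 -0.464 and Gbp2 -0.203. Ifi35 was -0.0597 with tumours 6 and 8 averaged, and without both Stat2 was -0.103, Ifit1 -0.0512, Bst2 -0.197, Ifi35 -0.264, Parp14 -0.0543 and Gbp2 -0.0537; these last settings were chosen after seeing the data. With 1 array left out Ifi35 ranged from -0.0658 to 0.352 and Stat2 from -0.0636 to 0.362. In all, 1029 member results kept direction and side, 42 gained the threshold, 3 lost it and 23 changed sign; the cause was not tested. The share of called genes that were higher was 47.1%, and 35.3% with each array centred on its 75th percentile. Oas2 signal near the filter limits its fold.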

Other observations

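The probe set that names both Isg15 and Gm9706 measured 8.85, 11.45, 9.29, 8.91, 9.91, 11.38, 8.87, 11.56 and 7.40 in tumours 1 to 9, against 7.85 to 9.28 in normal prostates. Tumours 2, 6 and 8 were its highest arrays and tumour 9 its lowest, as for most of the 30 genes, but the signal cannot be assigned to 1 gene.

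Values of another pair of genes, chosen after they were seen, are given as a description. Cxcl10, a chemokine that attracts T cells and is induced by interferon-gamma, measured 9.34, 9.24 and 9.50 in tumours 2, 6 and 8, while the other 6 tumours lay between 6.81 and 8.02, with tumour 9 at 7.96, and the normal prostates between 7.20 and 8.46. B2m, the light chain of MHC class I, measured 11.63 in tumour 9, 13.55 to 15.68 in the other tumours and 14.24 to 14.88 in normal prostates. Its highest array was tumour 5, and tumour 2, at 14.285, lay near the low end of the normal range. Neither gene was called between the groups.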
